A study of Sus scrofa with 15 samples.

Results

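In the knockdown table of an RNA sequencing study of IPEC-J2 cells, the 3 libraries numbered 2 lay together at one end of the main axis of variation, whichever lentiviral vector the cells held. These replicate 2 libraries, 1 per vector and 3 of the 15 libraries of the study, were compared with the 6 libraries of the same vectors numbered 1 and 3. They were selected on the same expression values that are described below, namely their position on the first principal component of the 9 libraries. Their scores were -22.9 in Lv133KD replicate 2, -20.4 in Lv143KD replicate 2 and -18.4 in Lv3NC replicate 2. The nearest library outside the set was Lv133KD replicate 1 at -4.1, and the farthest was Lv3NC replicate 3 at 32.0. Differences within the knockdown table are therefore descriptions, given with no test.

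IPEC-J2 is an untransformed epithelial line that was started from the small intestine of a piglet, and the libraries were made from total RNA. In the knockdown table, Lv133KD cells carried a lentivirus against miR-133 and Lv143KD cells a lentivirus that the design text assigns to miR-133 but the sample names to 143, so its target is unsettled, while Lv3NC cells carried a control lentivirus. A second table, normalised separately, holds OV143 cells with a lentivirus that raises miR-143 and Lv20NC cells with its control. Each vector has 3 libraries, numbered 1 to 3. The labels name neither a promoter nor a clone. They also do not say what a number stands for or whether libraries of 1 vector came from separate cultures, so a difference in culture, RNA extraction or sequencing cannot be told apart from any other that goes with the number.

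ATF4 is the transcription factor through which cells answer a shortage of amino acids, oxidative stress or misfolded protein: it raises transporters and enzymes that bring in or make amino acids, the enzymes that load them onto tRNA, and regulators such as DDIT3 and SESN2. Heat shock factor raises cytosolic chaperones, the hypoxia-inducible factors raise glycolytic enzymes, and NF-kB raises chemokines together with its own inhibitors. In gut epithelium the last of these is known for recruiting immune cells, and junction proteins such as claudins and occludin for sealing the cell layer.

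The replicate 2 libraries had sums of FPKM (fragments scaled by gene length and library total) of 511817 to 519213 and 11250 to 11399 genes at 1 FPKM or more, against 486086 to 520630 and 11453 to 11557 in the other 6. How many reads stand behind a value is unknown. Among the other 6, Lv143KD and Lv3NC replicate 3 stood apart with first component scores of 28.2 and 32.0, while Lv133KD replicate 3 at 0.7 lay beside the libraries numbered 1, which had scores of -4.1, -3.0 and 7.8. The epithelial label held, with 6 of 6 epithelial markers passing the filter on low values (1 FPKM in 3 of the 9 libraries) and a summed level of 1935 to 2063 FPKM in replicate 2 against 1374 to 2044 in the others. Of 8 mesenchymal markers only VIM and COL1A1 passed, with a sum of 1444 to 1596 FPKM in replicate 2 against 1097 to 1443, nearly all of it VIM, which epithelial lines in culture commonly express. DCN and LUM were at 0.01 FPKM or less everywhere. The leukocyte list (2 of 7 passed; 3.67 to 4.90 against 2.57 to 4.52 FPKM) has PTPRC listed at 0 in each of the 9 libraries, and the endothelial list (3 of 5 passed) summed to 10.9 to 12.6 against 11.05 to 13.35 FPKM.

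**Figure D1:**
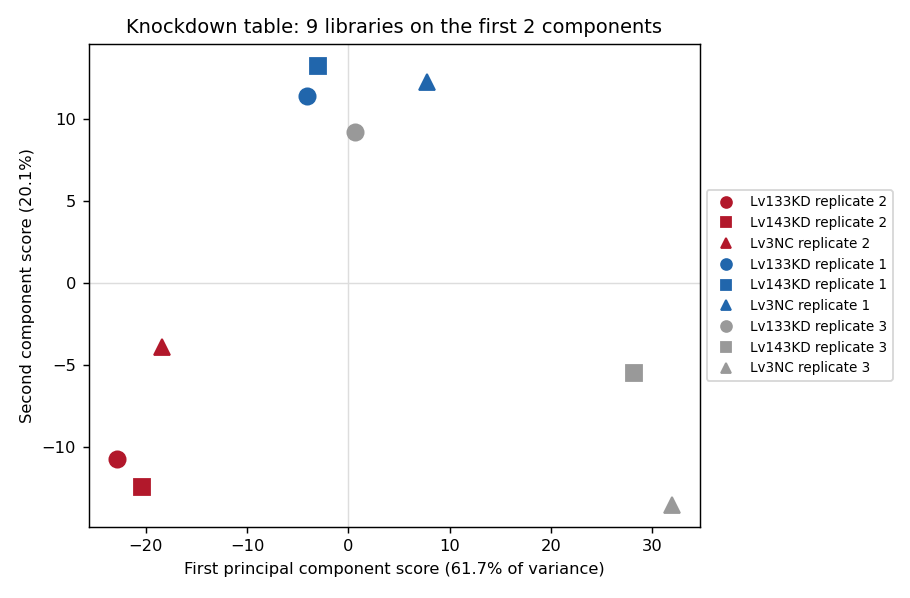
Scores of the 9 knockdown-table libraries on the first (horizontal, 61.7% of variance) and second (vertical, 20.1%) principal components of log2(FPKM + 1), with colour for the replicate number and shape for the vector. The 3 replicate 2 libraries lie between -22.9 and -18.4 on the first component, while Lv143KD replicate 3 and Lv3NC replicate 3 lie at 28.2 and 32.0.

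Of 11645 genes that passed the filter, 1413 (12.1%) had all 3 replicate 2 libraries above the other 6 and 2220 (19.1%) had all 3 below, and such genes are called separated here. These 2 shares are the background for each count below of list members over all 9 libraries. Fewer reference libraries make separation easier, so counts without some libraries have a higher background. With size factors by median of ratios the counts over all genes were 1935 and 1954. Most differences were small, and 18 separated genes (0.155%) were higher and 80 (0.687%) lower by at least 1 on the log2(FPKM + 1) scale, on which the changes of low genes are understated. The 18 became 8 without Lv143KD replicate 3, 10 without Lv3NC replicate 3, 29 without Lv3NC replicate 1 and 36 without either Lv133KD replicate 2 or Lv143KD replicate 1. The median difference over all genes was -0.03, so a value near 0 means the same place as the typical gene. Each difference below is the mean over vectors of replicate 2 minus replicates 1 and 3 on that scale, with the standard error (SE) of a limma fit with a vector term. Since the libraries are of bulk RNA, a change in the RNA of each cell and a change in the mix of cells cannot be told apart.

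Several of the genes with the largest differences take part in amino acid supply, and they were lower in replicate 2. SLC7A11, the cystine importer subunit (NCBI Gene 100623148; Sscrofa11.1 chromosome 8, 88608083 to 88690589), was at 1.06, 0.96 and 2.19 FPKM in Lv133KD, Lv143KD and Lv3NC replicate 2, against 9.34 to 22.95 FPKM with a median of 12.8 in the other 6. The groups did not overlap, and the log2 difference was -2.62 (SE 0.25). SLC1A4, a carrier of alanine, serine and cysteine, was at 5.25, 5.61 and 10.7 FPKM in the replicate 2 libraries, against 28.8 to 48.4 FPKM in the others (-2.24, SE 0.15). The glycine carrier SLC6A9 was at 3.04, 2.58 and 4.91 FPKM, against 14.2 to 23.6 FPKM (-2.08, SE 0.18). In each of these genes Lv3NC replicate 2 was the highest of the replicate 2 libraries, yet still below the lowest of the other 6. SLC3A2, the heavy chain that partners SLC7A11, was at 47.3, 44.1 and 76.0 FPKM in replicate 2, against 118.6 to 149.0 FPKM (-1.27, SE 0.11).

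Enzymes of serine, glycine and cysteine synthesis were lower too. PSAT1, the aminotransferase of the serine pathway (chromosome 1, 231142673 to 231172364), was at 29.0, 28.5 and 37.9 FPKM in replicate 2, against 90.5 to 161.9 FPKM with a median of 123.8 in the others (-1.92, SE 0.14). PSPH, which completes serine synthesis, was at 9.89, 10.6 and 12.6 FPKM, against 30.3 to 46.5 FPKM (-1.67, SE 0.11). Groups were separated for both, but not for PHGDH, the first enzyme of the same route, at 58.0, 56.2 and 65.9 FPKM in replicate 2 against 63.6 to 97.7 FPKM (-0.38, SE 0.12). CBS, the first enzyme that turns homocysteine toward cysteine (chromosome 13, 206205942 to 206231363), was at 6.24, 5.46 and 6.74 FPKM, against 20.7 to 37.1 FPKM (-1.94, SE 0.17). ASNS, asparagine synthetase, was among the more abundant of these genes, at 129.6, 128.6 and 171.0 FPKM in replicate 2 against 272.0 to 498.6 FPKM (-1.40, SE 0.16). BCAT1, which transaminates branched-chain amino acids, was at 10.2, 9.65 and 12.1 FPKM, against 26.6 to 62.5 FPKM (-1.80, SE 0.21).

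The regulators of the response showed the same order of libraries. SESN2, a stress-induced inhibitor of mTORC1 signalling (chromosome 6, 85321982 to 85348044), was at 3.09, 3.01 and 8.99 FPKM in replicate 2, against 21.7 to 39.6 FPKM with a median of 30.2 in the others (-2.48, SE 0.26). DDIT3, also called CHOP (chromosome 5, 22785441 to 22789867), was at 14.4, 15.5 and 29.6 FPKM, against 61.8 to 103.4 FPKM (-2.01, SE 0.16). In both genes the Lv3NC replicate 2 value was about midway on the log scale between the knockdown vectors and the other 6. The stress regulator NUPR1 was at 7.0, 6.97 and 14.01 FPKM in replicate 2, against 21.2 to 87.9 FPKM (-1.97, SE 0.29). The mRNA of ATF4 itself was at 128.3, 138.7 and 184.4 FPKM in replicate 2, against 184.1 to 233.4 FPKM (-0.51, SE 0.13), and there the groups overlapped, since Lv3NC replicate 2 exceeded Lv3NC replicate 3.

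Over the whole ATF4 amino acid list, 17 of 25 tested genes were lower and 0 higher, with a median log2 difference of -0.97 against -0.03 over all genes. By vector the median was -1.06 in Lv133KD, -1.24 in Lv143KD and -0.71 in Lv3NC. Lv3NC replicate 2 was the nearest of its set to the other libraries in 16 of the 17 genes, against 62.7% of all genes that were lower. The 8 members that were not separated were CHAC1, DDIT4, ATF3, ATF4, PHGDH, SLC38A2, VLDLR and ATF5, with differences of -1.11 to 0.20. DDIT4, an inhibitor of mTORC1, was at 85.3 and 79.1 FPKM in Lv133KD and Lv143KD replicate 2 but at 180.3 FPKM in Lv3NC replicate 2, against 163.1 to 208.9 FPKM in the others.

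The enzymes that charge tRNAs with amino acids were lower in 10 of 12 tested members and higher in 0, with a median difference of -0.93. SARS, the seryl enzyme, was at 81.0, 78.7 and 102.5 FPKM in replicate 2, against 185.0 to 352.8 FPKM (-1.54, SE 0.16). The cysteinyl enzyme CARS was at 4.58, 4.28 and 6.19 FPKM, against 12.8 to 17.4 FPKM (-1.42, SE 0.11). The alanyl enzyme AARS differed by -1.33 (SE 0.12) and the tryptophanyl enzyme WARS by -1.22 (SE 0.18). The glutamyl-prolyl and leucyl members EPRS (-0.22, SE 0.07) and LARS (-0.09, SE 0.07) were not separated. Of 24 symbols listed, 12 were found in the table, so the count covers those alone.

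**Figure D2:**
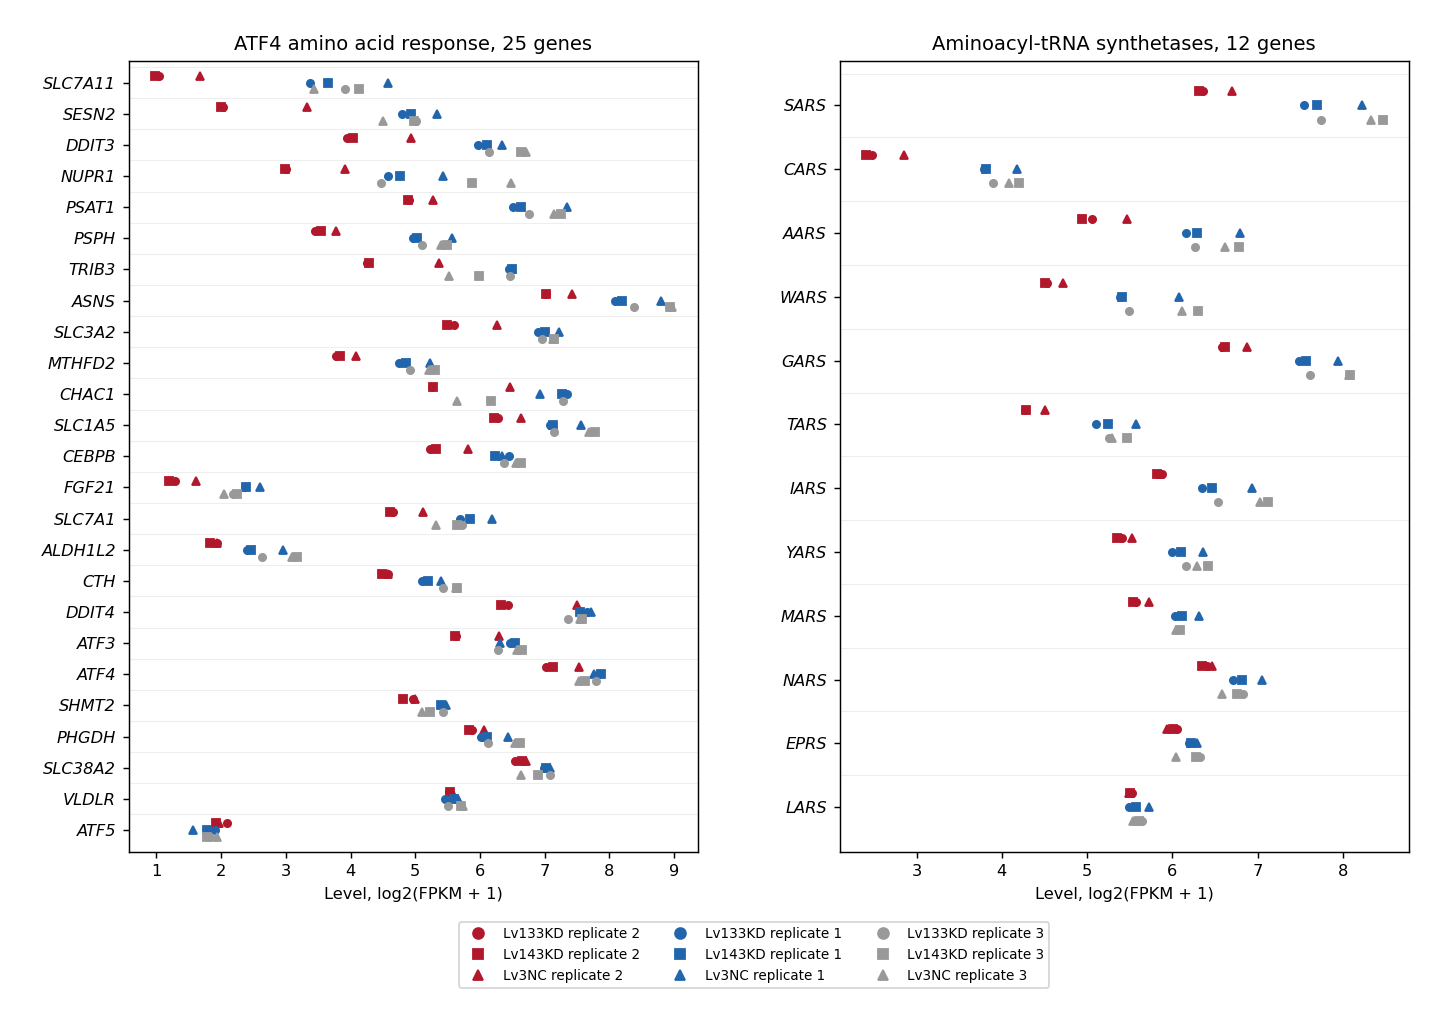
Level of each tested gene of the ATF4 amino acid list (left) and of the aminoacyl-tRNA synthetases (right) in the 9 libraries, as log2(FPKM + 1) on the horizontal axis; each point is 1 library, with replicate 2 in red. The red points lie left of all others for 17 of 25 and 10 of 12 genes, with Lv3NC replicate 2 (red triangle) usually the rightmost red point.

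Other strongly lower genes included genes that respond to glucose, a kinase and an activin subunit. TXNIP, which curbs glucose uptake and rises with sugar supply (chromosome 4, 99348589 to 99351760), was at 50.1, 51.9 and 93.7 FPKM in replicate 2, against 193.0 to 707.4 FPKM with a median of 236.4 in the others (-2.29, SE 0.36). The highest of those were Lv143KD replicate 3 and Lv3NC replicate 3 at 554.7 and 707.4 FPKM, and against the libraries numbered 1 alone the difference was -1.83. Its relative ARRDC4 was at 11.8, 12.7 and 16.3 FPKM in replicate 2, against 23.0 to 39.1 FPKM (-1.05, SE 0.12), and all 3 tested genes of the glucose-sensing list were lower. MKNK2, a kinase of the translation factor eIF4E, was at 30.1, 23.2 and 47.9 FPKM, against 123.8 to 228.3 FPKM (-2.27, SE 0.20). INHBE, an activin subunit, was near the floor of the scale at 0.17, 0.14 and 0.52 FPKM in replicate 2, against 3.23 to 5.98 FPKM (-2.05, SE 0.13).

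Of 8 tested glucocorticoid targets, 4 were lower and 0 higher, with a median difference of -0.74. TSC22D3, also called GILZ, was at 3.85, 3.70 and 6.86 FPKM in replicate 2, against 14.7 to 20.5 FPKM (-1.72, SE 0.11). CEBPD, a transcription factor of the acute phase response, was at 19.8, 20.8 and 23.2 FPKM, against 43.1 to 65.4 FPKM (-1.33, SE 0.14). Both were cleanly apart from the other 6 libraries. The circadian clock list was lower in 9 of 14 genes and higher in 0 (median -0.58). PER1, a repressor of the clock that is also a glucocorticoid target, was at 6.16, 6.41 and 6.57 FPKM in replicate 2, at 11.3 to 12.3 FPKM in the libraries numbered 1, and at 10.5, 32.6 and 45.05 FPKM in Lv133KD, Lv143KD and Lv3NC replicate 3 (-1.31, SE 0.43). PER2 was at 0.52 to 0.64 FPKM in replicate 2, against 1.56 to 2.74 FPKM (-0.93, SE 0.10).

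Some genes of epithelial inflammation were lower. CCL20, the chemokine that draws dendritic cells and lymphocytes to the gut lining (chromosome 15, 129172743 to 129176069), was at 17.96, 23.06 and 17.19 FPKM in replicate 2, against 40.9 to 108.1 FPKM with a median of 62.6 in the others (-1.70, SE 0.23). CXCL8, the main neutrophil attractant, was at 15.8, 13.8 and 20.7 FPKM, against 28.2 to 86.9 FPKM (-1.56, SE 0.32). The libraries numbered 1 were the highest for CXCL8, at 58.2 to 86.9 FPKM. Of 15 tested cytokines and chemokines 4 were lower, a share not far from the background of 19.1%, and 1, CXCL16, was higher (0.20, SE 0.08). The list median was -0.45, with -0.71 against the libraries numbered 1 and -0.13 against those numbered 3. CSF1, IL1A and CXCL2 overlapped because Lv143KD and Lv3NC replicate 3 were within or below the range of replicate 2, for example at 54.9 and 37.7 FPKM of CSF1, against 35.9 to 70.0 FPKM in replicate 2.

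The genes by which NF-kB limits itself were lower in 8 of 14 and higher in 0 (median -0.47). BIRC3, which holds back cell death at TNF receptors, was at 14.3, 15.1 and 16.2 FPKM in replicate 2, against 24.0 to 36.2 FPKM (-0.85, SE 0.12). BCL3, a nuclear IkB protein, was at 8.03, 8.95 and 12.9 FPKM, against 15.9 to 21.8 FPKM (-0.82, SE 0.15). PTGS2, the inducible cyclooxygenase of prostaglandin synthesis, was at 11.7, 11.9 and 13.5 FPKM, against 24.5 to 35.9 FPKM (-1.23, SE 0.13). All 3 genes were separated. Of 23 interferon-stimulated genes 7 were lower and 1 higher, with a median of -0.13; IRF1, a transcription factor of the interferon response, was at 9.69, 9.18 and 12.7 FPKM in replicate 2, against 14.7 to 26.1 FPKM (-0.81, SE 0.18), while BST2, a tether of enveloped virus, was at 30.1 to 34.0 FPKM, against 17.97 to 29.18 FPKM (0.49, SE 0.11).

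Among p53 targets 8 of 17 were lower and 1 higher (median -0.23). This list shares SESN2 with that of ATF4. GDF15, a secreted stress hormone, was at 4.65, 4.18 and 9.82 FPKM in replicate 2, against 10.4 to 21.3 FPKM (-1.32, SE 0.26). BBC3, also called PUMA, a promoter of cell death, was at 3.19, 3.04 and 5.52 FPKM, against 7.71 to 13.4 FPKM (-1.26, SE 0.10). The cell-cycle inhibitor CDKN1A, the defining p53 target, was not separated, at 72.0, 71.7 and 83.9 FPKM against 55.3 to 89.8 FPKM (0.14, SE 0.14). MAPK feedback and immediate early genes were lower in 5 of 23, a share near the background of 19.1%, and higher in 0. The median of that list was -0.44 in both Lv133KD and Lv143KD but 0.08 in Lv3NC. ETV5, induced by ERK signalling, was at 5.13 to 5.53 FPKM in replicate 2, against 9.43 to 12.9 FPKM (-0.90, SE 0.09), and NRG1, a ligand of ERBB receptors, was at 3.49 to 4.08 FPKM, against 7.85 to 11.9 FPKM (-1.12, SE 0.11). KLF4, a factor of epithelial differentiation (chromosome 1, 248604817 to 248609574), was at 19.1, 21.4 and 36.3 FPKM in replicate 2, against 73.4 to 114.4 FPKM (-1.73, SE 0.15).

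Cytosolic chaperones were higher in replicate 2. HSPA8, the constitutive HSP70 (NCBI Gene 100511890; chromosome 9, 49982278 to 49986760), was at 1300, 1196 and 1002 FPKM in Lv133KD, Lv143KD and Lv3NC replicate 2, against 253.3 to 627.2 FPKM with a median of 464.4 in the other 6 (1.44, SE 0.21). Its co-chaperone DNAJA1 was at 89.1, 82.1 and 76.8 FPKM, against 34.8 to 63.7 FPKM (0.75, SE 0.17), and the inducible HSP90AA1 at 442.8, 419.5 and 385.4 FPKM, against 197.5 to 329.1 FPKM (0.66, SE 0.15). Of 13 heat shock genes 9 were higher and 2 lower (median 0.26), and in each of the 9 the lowest replicate 2 library was Lv3NC. The lower members were small heat shock proteins, HSPB1 at 1619 to 1749 FPKM in replicate 2 against 1764 to 2656 FPKM (-0.47, SE 0.13) and HSPB8 (-0.54, SE 0.15). HSPA8 has many near-identical processed copies in mammals, so reads may have been divided among them.

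Chaperones of the endoplasmic reticulum did not follow, with 1 of 20 genes of that list higher, 6 lower and a median of -0.05. HSPA5, the HSP70 of that compartment, also called BiP, was at 236.5, 250.0 and 198.1 FPKM in replicate 2, at 350.3 to 399.7 FPKM in the libraries numbered 1, and at 447.6, 890.6 and 1310 FPKM in Lv133KD, Lv143KD and Lv3NC replicate 3 (-1.26, SE 0.41). HERPUD1, which serves degradation of misfolded protein, was at 20.2 to 21.5 FPKM in replicate 2, against 31.9 to 135.6 FPKM (-1.37, SE 0.44). Their SE was large because the other 6 differed among themselves. CALR, PDIA3 and CANX overlapped, with differences of 0.12, -0.03 and -0.01.

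Glycolytic and hypoxia-induced genes were higher in 10 of 29 and lower in 0 (median 0.21). Against the libraries numbered 1 the median was 0.06 with 10 higher, and against those numbered 3 it was 0.30 with 19 higher. Over all 11645 genes, 1943 were higher against number 1 and 2532 against number 3. ANKRD37, a target of hypoxia-inducible factor (chromosome 15, 46445789 to 46450046), was at 33.9, 29.8 and 28.3 FPKM in replicate 2, at 17.91 to 20.01 FPKM in the libraries numbered 1 and at 4.97 to 8.63 FPKM in those numbered 3 (1.34, SE 0.42; 0.67 against number 1 and 2.01 against number 3). LDHA, which makes lactate, was at 1204, 1162 and 1154 FPKM in replicate 2, against 662.3 to 987.3 FPKM (0.45, SE 0.12). The vasodilator peptide gene ADM was at 28.9, 24.7 and 41.2 FPKM, against 12.4 to 23.8 FPKM (0.74, SE 0.22). VEGFA, SLC2A1 and CA9, common readouts of hypoxia, overlapped between the groups.

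Of 19 tested NRF2 antioxidant targets 7 were higher and 2 lower (median 0.07). NQO1, a quinone reductase (chromosome 6, 17292962 to 17302593), was at 48.3, 45.1 and 40.5 FPKM in replicate 2, against 16.04 to 24.1 FPKM with a median of 17.3 (1.25, SE 0.09). The groups were far apart, and the difference was 1.20 to 1.30 under the alternatives tried. PGD of the pentose phosphate route was at 61.0, 53.1 and 59.5 FPKM, against 19.7 to 47.5 FPKM (0.78, SE 0.26), and the ferritin light chain FTL, which has many processed copies, at 5823 to 5960 FPKM, against 3586 to 4614 FPKM (0.58, SE 0.09). SLC7A11, described above, is the member that was lowest. HMOX1, the most used marker of this factor, overlapped at 5.34, 4.67 and 5.53 FPKM in replicate 2 against 3.96 to 6.24 FPKM.

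Genes of DNA replication were higher in 9 of 31 and lower in 1 (median 0.33). The size of the median depended much on 2 libraries of the other set. TK1, which salvages thymidine, was at 51.9, 46.0 and 49.5 FPKM in replicate 2, at 38.5, 34.1 and 26.9 FPKM in the libraries numbered 1 and at 30.9, 11.4 and 11.8 FPKM in Lv133KD, Lv143KD and Lv3NC replicate 3 (1.06, SE 0.35). MCM5, a subunit of the replicative helicase, was at 24.5, 21.8 and 24.7 FPKM in replicate 2, against 11.5 to 18.7 FPKM in number 1 and 14.8, 4.74 and 5.84 FPKM in number 3 (1.05, SE 0.36). Lv143KD and Lv3NC replicate 3 were the lowest libraries for all 9 separated genes, against 65.7% of all genes that were higher. The list median was 0.12 against the libraries numbered 1 and 0.57 against those numbered 3, and 0.13 without those 2 libraries. With Lv143KD and Lv3NC replicate 3 left out, 9 replication genes were higher and 3 lower, against 1723 and 3095 of all 11645 genes. A count of separated genes cannot fall when libraries are left out. Mitotic genes were separated in 2 of 30, both higher: CENPE, a kinetochore motor, at 9.53, 9.53 and 8.49 FPKM in replicate 2 against 1.91 to 5.65 FPKM (1.14, SE 0.25), and CENPF (0.56, SE 0.10). Without Lv143KD and Lv3NC replicate 3, 16 of the 30 were higher, against 1723 of all 11645 genes. The median of the mitotic list was 0.12, and -0.02 against the libraries numbered 3 alone.

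The median of ribosome biogenesis genes also depended on those libraries, and that of splicing genes did so less. Of 22 biogenesis genes 9 were higher and 0 lower (median 0.33). Without Lv143KD and Lv3NC replicate 3 the median was 0.15. The count of higher genes was 9 there too, but it could not have fallen. The nucleolar protein NCL was at 407.0, 385.8 and 370.6 FPKM in replicate 2, at 286.7 to 298.4 FPKM in number 1 and at 282.2, 177.6 and 151.5 FPKM in number 3 (0.69, SE 0.21). Of 13 SR splicing factors and their kinases 7 were higher and 1 lower (median 0.31). Without those 2 libraries the median was 0.24, with 7 higher and 3 lower, against 1723 and 3095 of all 11645 genes. SRSF3 was at 86.1, 79.2 and 74.9 FPKM in replicate 2, against 33.3 to 58.3 FPKM (0.71, SE 0.19), and SRSF10 at 58.7 to 62.7 FPKM, against 29.9 to 46.1 FPKM (0.64, SE 0.14). HNRNPA1, another splicing regulator and one with many near-identical copies, was at 653.5, 654.8 and 602.0 FPKM, against 242.9 to 361.0 FPKM (1.01, SE 0.12), and lay apart. The ribosomal proteins themselves differed little, with 2 of 40 higher, 0 lower and a median of 0.11.

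**Figure D3:**
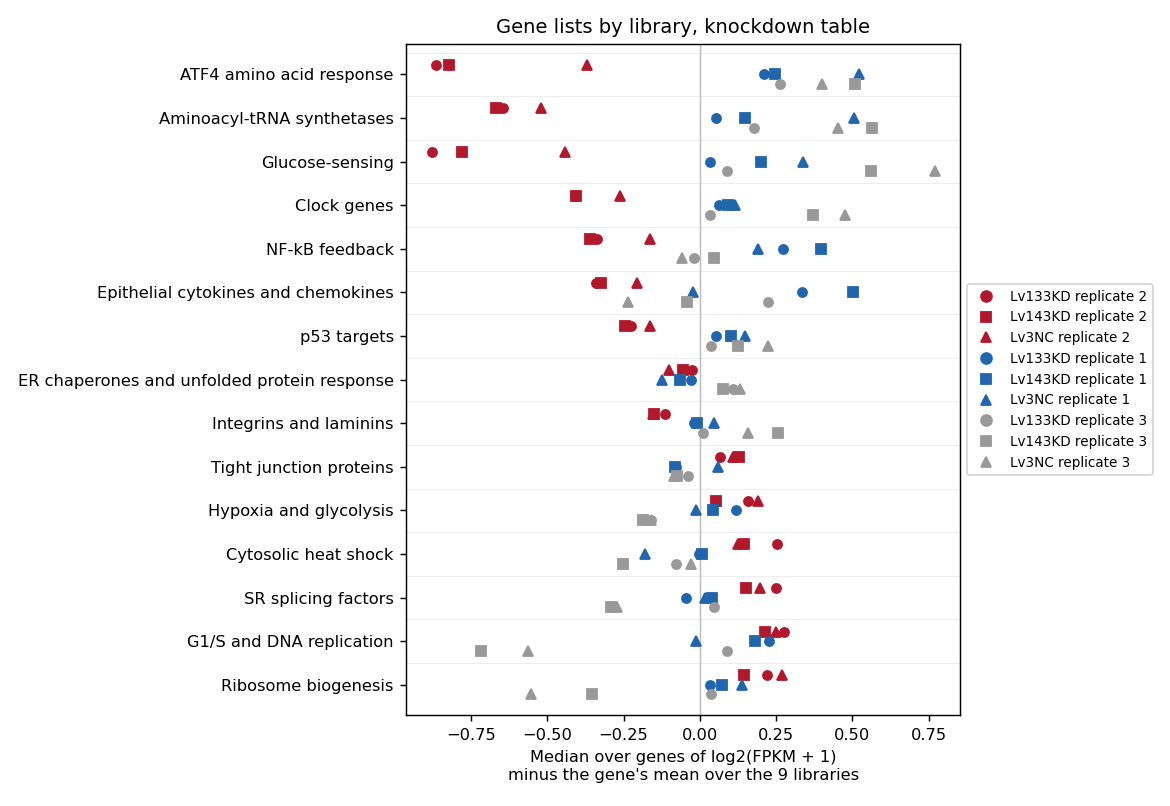
Median over the tested genes of each list of log2(FPKM + 1), after subtracting each gene's mean over the 9 libraries (horizontal axis); each point is 1 library, coloured by replicate number and shaped by vector. Replicate 2 lies alone at the left for the ATF4, tRNA synthetase, glucose-sensing and clock lists, whereas for DNA replication and ribosome biogenesis it lies near number 1 and the 2 replicate 3 libraries of Lv143KD and Lv3NC lie apart at the left.

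Junction genes were mostly higher where they were separated, and adhesion genes mostly lower. Of 15 tight junction genes 6 were higher and 2 lower (median 0.21). CLDN4, a sealing claudin, was at 556.7, 504.3 and 776.5 FPKM in replicate 2, against 267.2 to 408.3 FPKM (0.80, SE 0.12), and occludin, OCLN, at 89.3, 90.1 and 106.0 FPKM, against 62.9 to 81.9 FPKM (0.50, SE 0.08). CLDN7 was lower (-0.57, SE 0.13). Of 16 integrins and laminins 6 were lower and 1 higher (median -0.18). ITGA3, the laminin-binding integrin chain, was at 274.3, 273.7 and 321.6 FPKM in replicate 2, against 385.4 to 521.6 FPKM (-0.61, SE 0.08), while the laminin chain LAMA3 was at 30.9 to 33.4 FPKM, against 18.7 to 26.5 FPKM (0.51, SE 0.10).

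Further genes among the 15 largest higher differences included genes of epithelial glycosylation and differentiation. B3GNT3, a glycosyltransferase of mucin-type glycans, was at 9.20, 8.37 and 8.65 FPKM in replicate 2, against 2.19 to 4.56 FPKM (1.27, SE 0.14). The cell-cycle protein SFN (14-3-3 sigma) was at 612.6, 604.0 and 603.6 FPKM, against 156.5 to 392.8 FPKM (1.08, SE 0.27). The replicate 2 levels of SFN were close to each other, while the other 6 were spread. GRHL3, a factor of barrier formation, was at 8.40 to 11.4 FPKM in replicate 2, against 2.17 to 6.12 FPKM (1.03, SE 0.26). The amino acid exchanger SLC7A8, at 2.05, 2.22 and 1.44 FPKM against 0.23 to 0.52 FPKM (1.08, SE 0.08), passed the filter on low values only through replicate 2. That holds for 12 tested genes, all of them higher by construction. Another 196 genes were under 1 FPKM in all 3 replicate 2 libraries, so they passed the filter only through replicates 1 and 3. Of these, 128 were lower, which the filter favours, so neither count says anything about the genes. SUOX (1.12, SE 0.18), NCLN (1.06, SE 0.28) and KCTD12 (1.04, SE 0.13) were also among the 15 largest higher differences.

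**Figure D4:**
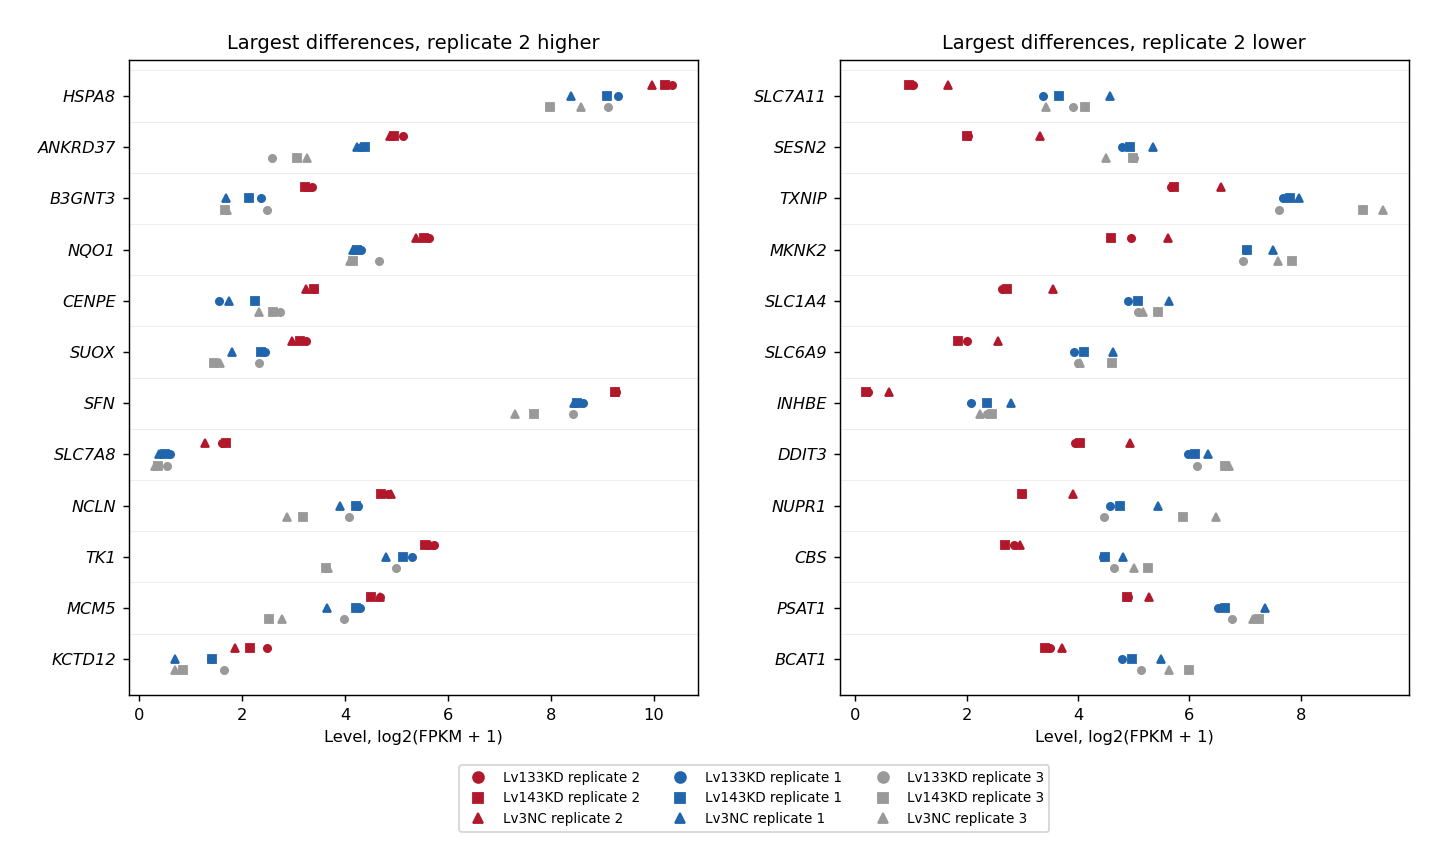
Levels of the 12 named genes with the largest higher (left) and lower (right) differences among separated genes, as log2(FPKM + 1) on the horizontal axis; each point is 1 of the 9 libraries. Red replicate 2 points do not overlap the blue and grey points of replicates 1 and 3, which is how the genes were chosen, and the lower differences reach -2.62 where the higher ones end at 1.44. Genes known only by a LOC number were not drawn, and the highest of them differed by 1.81.

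Cholesterol synthesis had 3 of 22 higher and 4 lower, and the enterocyte and brush border list had 2 of 15 higher and 1 lower. ANPEP, a peptidase of that list, was at 1.69 to 1.79 FPKM in replicate 2, against 0.48 to 0.87 FPKM (0.77, SE 0.09). Of 16 genes of mitochondrial fatty acid oxidation 7 were lower and 0 higher, with a median of only -0.13. MT-2B, a zinc-binding metallothionein with near-identical copies, was at 280.0, 301.8 and 477.3 FPKM in replicate 2, against 635.9 to 979.9 FPKM (-1.15, SE 0.07). SERPINE2, an inhibitor of plasminogen activators, was at 41.3 to 46.3 FPKM, against 23.6 to 28.6 FPKM (0.75, SE 0.08).

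Separated genes differed by level and by length. In the upper tertile of mean level 16.4% were higher and 14.7% lower, while in the lower tertile 7.37% were higher and 24.6% lower. Of genes with a short genomic span 14.7% were higher and 14.8% lower, and of those with a long span 10.1% were higher and 23.8% lower. The part of level and span in the list results was not tested. Replicate 2 also had fewer genes at 1 FPKM or more than any other library, and its 100 most abundant genes held 35.0% to 36.2% of all FPKM, against 32.4% to 36.3%.

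The vectors shared the direction for many genes but not all. Replicate 2 minus the mean of replicates 1 and 3 was positive in each of the 3 vectors for 3468 genes (29.8%) and negative in each for 4392 (37.7%). Over all genes, none of them an independent replicate, the differences of Lv133KD and Lv143KD correlated at 0.85, those of Lv143KD and Lv3NC at 0.85 and those of Lv133KD and Lv3NC at 0.70. The 3 libraries were selected on the same values for lying together across vectors, so this agreement was favoured by the selection. Genes were also ranked by a limma F test of the interaction, which asks whether the replicate 2 difference depended on the vector. It cannot decide this, since each vector has 1 replicate 2 library and the residual is the gap between replicates 1 and 3. The selection also favoured a small interaction, so the test does not show that the vectors were alike. DDIT4 came first in the ranking, with differences of -1.08 in Lv133KD, -1.24 in Lv143KD and -0.13 in Lv3NC. It was followed by APOA1, a predicted gene without a symbol, G0S2 and APOC3.

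The overexpression table offers libraries that the selection did not use, although it was known from earlier work on these data that OV143 replicate 2 stands apart there. No label says that number 2 marks the same occasion in both tables. In a limma fit with a vector term over its 6 libraries, 1649 of 11506 genes (14.3%) were higher and 1702 (14.8%) lower in replicate 2 at an adjusted p under 0.05. These counts moved widely when single libraries were left out, and the cause was not tested. Without OV143 replicate 2, 10 genes (0.0869%) were higher and 52 (0.452%) lower in Lv20NC replicate 2 alone, whose spread is then taken from the other groups. Without Lv20NC replicate 2 there were 3410 and 3094. No gene passed without Lv20NC replicate 3 (limma, smallest adjusted p = 0.0593), although 4305 genes (37.4%) had an unadjusted p under 0.05 there. The counts were 188 and 509 without OV143 replicate 1 and 351 and 699 without OV143 replicate 3. The FPKM sum was 662022 in OV143 replicate 2 and 558042 in Lv20NC replicate 2, against 518578 to 544973 in the other 4; with size factors by median of ratios the counts were 1453 and 1803.

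For genes of the ATF4 list the overexpression table gave mixed values. SLC7A11 was at 1.06 FPKM in OV143 replicate 2, against 5.03 and 5.83 FPKM in OV143 replicates 1 and 3, and at 7.55 FPKM in Lv20NC replicate 2, against 10.2 and 8.36 FPKM in Lv20NC replicates 1 and 3. It fell over both vectors by 0.95 on the log2 scale (SE 0.25, limma adjusted p = 0.0283, and 0.308 without OV143 replicate 2). SESN2 was at 3.20 FPKM against 9.01 and 9.31 FPKM in OV143, and at 23.1 FPKM against 22.3 and 14.5 FPKM in Lv20NC, and did not pass (log2 difference -0.47, SE 0.30, adjusted p = 0.241). For DDIT3 the values were 22.3 against 40.9 and 42.8 FPKM in OV143, and 69.5 against 58.0 and 50.0 FPKM in Lv20NC (-0.26, SE 0.22, adjusted p = 0.375). The ATF4 list had a median difference of -0.52 in OV143 and 0.17 in Lv20NC. Of its 25 members 3 fell (SLC7A11, ALDH1L2 and SLC38A2) and 2 rose (SHMT2 and PHGDH), and of 12 tRNA synthetases 2 fell (IARS and LARS). Over all genes 14.8% fell and 14.3% rose.

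Of the 30 genes with the largest knockdown-table differences, 7 passed in the overexpression table, where 14.3% of all genes were higher and 14.8% lower, and none passed there without OV143 replicate 2. ANKRD37 rose, at 26.0 FPKM in OV143 replicate 2 and 9.48 FPKM in Lv20NC replicate 2, against 10.3 and 14.2 FPKM in OV143 and 7.35 and 8.61 FPKM in Lv20NC (log2 difference 0.63, SE 0.18, adjusted p = 0.0346). NQO1 rose by 0.31 (SE 0.09, adjusted p = 0.0388), SUOX by 0.57 (SE 0.14, 0.0261), SFN by 0.50 (SE 0.14, 0.0308) and NCLN by 0.38 (SE 0.12, 0.0474). CENPE fell, in the direction opposite to that of the knockdown table, at 4.61 and 6.0 FPKM in OV143 and Lv20NC replicate 2, against 8.69 and 9.38 FPKM in OV143 and 6.90 and 8.29 FPKM in Lv20NC (-0.56, SE 0.14, adjusted p = 0.0247). CCL20 showed no such difference, at 113.9 and 217.7 FPKM in OV143 and Lv20NC replicate 2, against 120.1 to 122.5 FPKM in OV143 and 199.3 to 200.5 FPKM in Lv20NC (0.02, SE 0.09, adjusted p = 0.895). HSPA8 was at 1066 and 655.3 FPKM, against 753.5 and 764.6 FPKM in OV143 and 653.4 and 843.7 FPKM in Lv20NC (0.15, SE 0.16, adjusted p = 0.454).

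Over all genes the differences of the 2 tables correlated weakly. With all libraries, separated genes passed more often in the same direction than in the opposite one. As background for this and the list counts below, 14.3% of all genes rose and 14.8% fell in the overexpression table. Of the 1387 genes higher in replicate 2 of the knockdown table that were tested in both, 275 rose and 152 fell in the overexpression table. Of the 2087 lower ones, 384 fell and 146 rose. Without OV143 replicate 2 these counts were 0 and 4, and 7 and 3. Across the 11142 genes tested in both, the differences correlated at 0.25 with those of OV143 replicate 2 and at 0.01 with those of Lv20NC replicate 2, where each set of points shares its libraries. Some lists with many calls in the overexpression table were in part separated in the same direction in the knockdown table, and others were not. Of the ribosomal proteins 30 of 40 rose in the overexpression table and 2 of 40 were higher in the knockdown table. For S100 genes these counts were 10 of 11 and 3 of 12, for respiratory chain subunits 11 of 22 and 5 of 22, for NRF2 targets 8 of 19 and 7 of 19, and for hypoxia and glycolysis genes 9 of 29 and 10 of 29. Of integrins and laminins 9 of 16 fell in the overexpression table and 6 of 16 were lower in the knockdown table. Tight junction genes went the other way: 6 of 15 fell and 1 rose, against 2 lower and 6 higher in the knockdown table. Of 30 mitotic genes 9 fell and 3 rose, against 0 lower and 2 higher. Of 14 MHC class I loading genes 5 rose and 1 fell, against 0 higher and 2 lower. The genes with the largest falls were CTDSP2, TLR3, CBL, SGCB and CERKL (-2.04 to -1.35), and those with the largest rises SLC39A5, CCL4, FBXL2, CCNL1 and SEPT11 (0.75 to 0.81). Of these, CTDSP2, CERKL, FBXL2 and CCNL1 were lower in replicate 2 of the knockdown table.

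**Figure D5:**
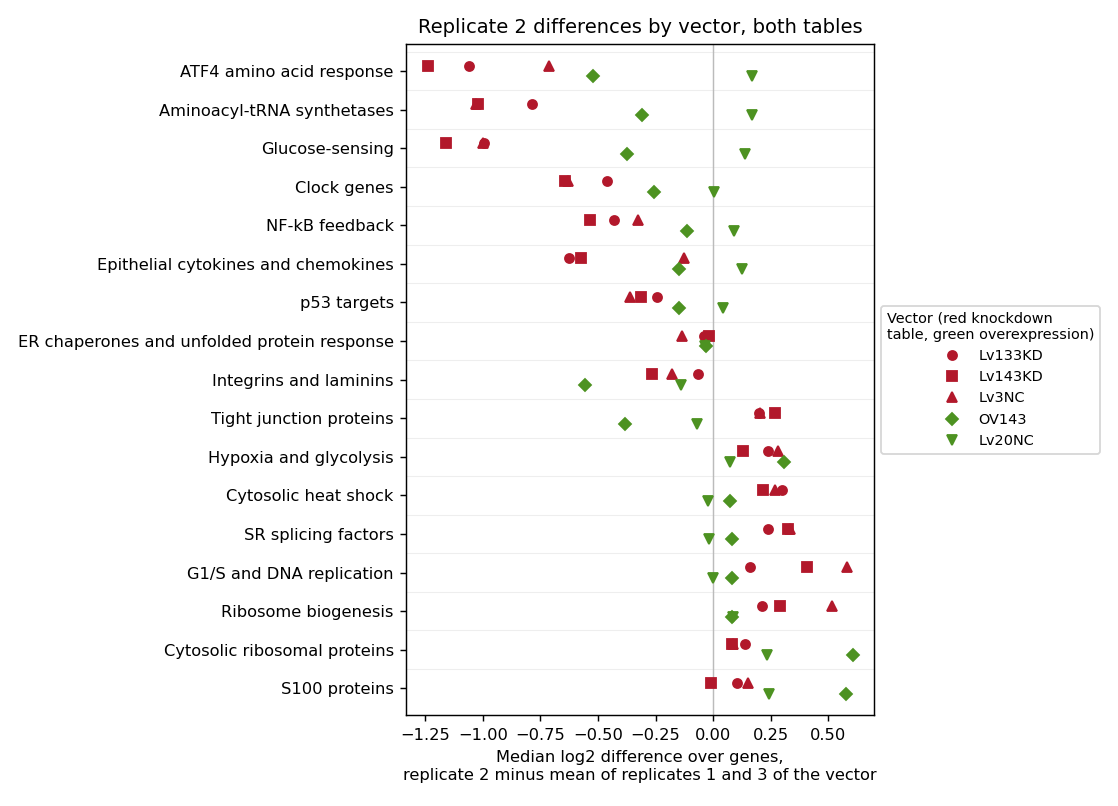
Median log2 difference over the genes of each list, replicate 2 minus the mean of replicates 1 and 3 of the same vector (horizontal axis), for the 3 vectors of the knockdown table in red and the 2 of the overexpression table in green. For the ATF4 list the red points lie between -1.24 and -0.71, OV143 at -0.52 and Lv20NC at 0.17.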

How the data were processed

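The authors deposited FPKM values per gene in 2 tables, of 9 knockdown and 6 overexpression libraries, per the file headers. The build is Sscrofa11.1, per the submitters' processing notes; the sources used here name no aligner, counting tool or strand setting. Symbols and 1-based coordinates came from a RefSeq gene table of that build (18618 of 19000 and 16949 of 17001 genes matched). Whole reads could not be recovered: of 4818 low-value genes, 1 fitted whole multiples within 10% and 19 within 20%, so depth is unknown. Precision is given by the SE; the median SE was 0.10 in both tables.

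Values were analysed as log2(FPKM + 1), a pseudocount of 1, keeping genes that reached 1 FPKM in 3 or more libraries. R 4.3.3 and limma 3.58.1 were used, with a vector term and a trended variance prior; tests were two-sided and p-values adjusted by Benjamini-Hochberg over all tested genes. Both fits were tested on simulated data. The members and the 46 gene lists (799 symbols, 755 found) were chosen with earlier results of these data known. Named genes are the 15 largest separated differences each way with a proper symbol, up to 4 separated members and the defining members of a described list, the 5 largest calls each way in the overexpression table and the 5 smallest p of the interaction. SLC3A2, PSPH and SERPINE2 were added after their values were seen, and 1 gene of the 15 higher ones is not reported here. P-values measure the spread between these libraries, which may be technical. Results were recomputed with another pseudocount, filter or scaling, another reference set, and without each library or vector. No other columns of sample values were present.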

Additional observations from a re-analysis of the deposited data

Results flagged for a closer look

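For 3 of the 30 genes with the largest differences, replicate 2 lay on one side of replicates 1 and 3 in every knockdown-table vector and on the opposite side in both overexpression-table vectors. The difference between the tables was not tested. NUPR1 had a log2 difference of -1.97 in the knockdown table, while its difference in the overexpression table was 0.33. CBS had -1.94 and 0.22, and CENPE had 1.14 and -0.56.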

How the results depend on the processing

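No paired analysis was possible because the replicate number is itself what is compared. In the knockdown table, the counts of genes with replicate 2 above (1413) or below (2220) the other 6 and of those apart by at least 1 log2 (18 and 80) stayed within 1.5 times of these values under no filter, median-of-ratios or upper-quartile scaling, separation within each vector, and without the vector Lv143KD. With a pseudocount of 0.1, 43 and 170 genes were apart by at least 1 log2. With a mean of at least 5 FPKM, 1431 genes were below. Against number 1 alone 3468 were below and 9 above by at least 1 log2; against number 3 alone 2532 were above, and 83 above and 133 below by at least 1 log2. Without Lv143KD and Lv3NC replicate 3 together 8 were above by at least 1 log2, without the vector Lv133KD 36, and without the vector Lv3NC 2142 were above and 3811 below. Without each library in turn the counts were 1432 to 1926 above and 2305 to 3174 below. By at least 1 log2 they were 8 to 36 above and 67 to 100 below. The 8 were without Lv143KD replicate 3 and the 36 without Lv133KD replicate 2 or Lv143KD replicate 1. Leaving out libraries or separating within each vector cannot lower the counts of 1413 and 2220, and a pseudocount cannot change them. Those settings therefore do not show that these 2 counts are stable.

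Over the 30 leading genes and these alternatives no difference changed sign. Of the list medians recomputed, 2 changed sign, both against number 3 alone: the interferon-stimulated list at 0.0466 and the mitotic list at -0.0198. The interaction was also recomputed, but with 1 replicate 2 library per vector it cannot show whether the vectors differed. In the overexpression table the counts of higher and lower calls were 0 and 0 with no filter (limma, 5511 of 16987 genes at an unadjusted p under 0.05), 1 and 3 without the vector term, 411 and 681 with array weights, and 0 to 3410 and 0 to 3094 without each library in turn (leave-one-out). The cause of these moves was not tested. Depth limits what can be said of genes near 1 FPKM, since no count stands behind them.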
